A study of Homo sapiens with 8 samples.

Results

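The 10 genes described here are 3 receptors of the EGF receptor (ERBB) family, *EGFR*, *ERBB2* and *ERBB3*, and 7 of their ligands, *AREG*, *EREG*, *HBEGF*, *TGFA*, *BTC*, *EPGN* and *NRG1*. They were taken from the table by gene symbol, and all 10 were among its 13842 genes. RNA was sequenced from the human breast epithelial line MCF10A, which is not tumorigenic, and from DCIS.COM, a line descended from MCF10A cells transformed with *HRAS* that forms lesions resembling ductal carcinoma in situ. Each line was stably transduced with the lentiviral vector pLOC, either empty (pLOC-empty) or carrying the long non-coding RNA *MALINC1* (pLOC-*MALINC1*), and selected with 10 µg/mL blasticidin, which gave 4 groups of 2 libraries. MCF10A cells grew in DMEM/F-12 with 5% horse serum, 20 ng/mL EGF, 100 µg/mL hydrocortisone, 10 µg/mL insulin, 100 ng/mL cholera toxin and penicillin with streptomycin, whereas for DCIS.COM the labels list DMEM/F-12 with 5% horse serum alone. A ligand of EGFR was therefore listed in the medium of one line and not of the other, so that the cell line and its medium cannot be told apart in any comparison between the lines. The comparisons of pLOC-*MALINC1* with pLOC-empty were made within 1 line and 1 medium. Overexpression from a vector was the only perturbation, the sources do not say whether the transduced cells were clones or pools, and nothing says that the libraries of a group came from separate cultures, so p-values measure the spread between these libraries, which may be technical.

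ERBB receptors are tyrosine kinases of the cell surface that pair with each other when a ligand binds. EGFR binds all of the ligands listed here except NRG1, which binds ERBB3; ERBB2 has no known ligand and serves as the partner of the others, and ERBB3 has little kinase activity of its own and recruits PI3 kinase. The ligands are made as precursors anchored in the membrane and are released by ADAM proteases, and the RAS-ERK cascade is a main route of their signal. In the mammary gland amphiregulin (AREG) drives the outgrowth of ducts, and MCF10A cells depend on EGF for growth in culture.

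Total reads recovered from the table ranged from 20604377 to 37550457 per library. CPM, the reads of a gene scaled to a common library size, was the unit of the levels. *MALINC1* lay at 1.0 and 1.51 CPM in the MCF10A pLOC-empty libraries and at 13.2 and 11.7 CPM in those with pLOC-*MALINC1*, and in DCIS.COM at 1.35 and 1.15 CPM against 24.5 and 19.2 CPM, in the direction the labels give. Epithelial markers were present in all libraries, with *KRT8* at 786 to 1865 CPM, and *PTPRC* and *CDH5*, which define leukocytes and endothelium, have no row. Of the other markers of these cells and of fibroblasts, 1 of 2 leukocyte genes was measured (*CD68*, 3.53 to 11.4 CPM over the libraries), 1 of 5 fibroblast genes (*COL1A1*, 1.51 to 15.9 CPM) and 1 of 2 endothelial genes (*PECAM1*). *PECAM1* averaged 6.64 CPM in DCIS.COM with the empty vector and 0.13 CPM under *MALINC1*, a fall (limma adjusted p = 1.13e-08), and lay at 0.68 to 1.03 CPM in MCF10A. *COL1A1* fell in MCF10A, from 15.1 and 15.9 CPM in the controls to between 6.61 and 7.38 CPM (limma adjusted p = 1.31e-05). The basal markers were not uniform between the lines. With the empty vector *KRT14* averaged 1452 CPM in MCF10A and 33.0 CPM in DCIS.COM, and *KRT6A* 8865 and 90.3 CPM. *KRT5* averaged 6149 and 1069 CPM, and *KRT17* 9985 and 970 CPM. *TP63* went the other way, from 4.92 CPM in MCF10A to 56.6 CPM in DCIS.COM. Within MCF10A it averaged 40.9 CPM under *MALINC1*. The part of these markers in the results below was not tested.

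A gene was called where limma gave a Benjamini-Hochberg adjusted p below 0.01 over all 13842 genes together with a change of more than 2-fold, and "rose" and "fell" are used for called genes. Levels are CPM, and fold changes are on the deposited log2 scale, which holds a small prior count. Because *EPGN*, *EREG* and *AREG* lie next to each other and behaved differently, and because *EREG*, *AREG*, *HBEGF* and *TGFA* rose together in MCF10A, the 250 bases before their start sites are shown, each 5′ to 3′ on the strand of its gene, from RefSeq (GRCh38.p14). Capitals mark the motifs found, which were searched on both strands: the cyclic AMP response element (CRE) with the letters TGACGTCA, the AP-1 site with TGACTCA, the GC box with GGGCGG and the TATA box with TATAAA.
EPGN, chr4:74308220-74308469, plus strand: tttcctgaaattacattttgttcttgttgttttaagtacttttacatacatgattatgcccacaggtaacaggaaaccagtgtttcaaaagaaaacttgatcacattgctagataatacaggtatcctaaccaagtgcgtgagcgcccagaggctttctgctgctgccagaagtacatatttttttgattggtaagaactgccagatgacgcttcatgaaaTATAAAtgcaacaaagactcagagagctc
EREG, chr4:74364895-74365144, plus strand: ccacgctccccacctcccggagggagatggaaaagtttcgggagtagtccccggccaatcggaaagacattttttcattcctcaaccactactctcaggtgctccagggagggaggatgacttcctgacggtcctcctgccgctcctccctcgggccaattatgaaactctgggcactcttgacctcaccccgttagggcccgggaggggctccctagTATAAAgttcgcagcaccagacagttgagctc
AREG, chr4:74444886-74445135, plus strand: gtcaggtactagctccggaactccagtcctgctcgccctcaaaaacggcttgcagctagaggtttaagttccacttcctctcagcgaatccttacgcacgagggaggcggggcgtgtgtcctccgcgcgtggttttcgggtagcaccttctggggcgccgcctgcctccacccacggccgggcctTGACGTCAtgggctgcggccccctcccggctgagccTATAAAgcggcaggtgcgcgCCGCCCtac
HBEGF, chr5:140346604-140346853, minus strand: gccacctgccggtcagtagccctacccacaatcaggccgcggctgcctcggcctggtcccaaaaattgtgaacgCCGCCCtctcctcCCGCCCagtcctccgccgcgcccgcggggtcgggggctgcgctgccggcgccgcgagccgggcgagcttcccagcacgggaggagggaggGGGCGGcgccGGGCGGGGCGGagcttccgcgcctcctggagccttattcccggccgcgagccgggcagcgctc
TGFA, chr2:70553827-70554076, minus strand: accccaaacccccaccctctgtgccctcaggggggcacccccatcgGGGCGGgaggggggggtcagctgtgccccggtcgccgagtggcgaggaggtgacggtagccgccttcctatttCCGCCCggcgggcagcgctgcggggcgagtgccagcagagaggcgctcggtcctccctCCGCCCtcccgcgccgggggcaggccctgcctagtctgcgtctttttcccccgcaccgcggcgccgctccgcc

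The *AREG* window held 1 CRE, starting at -65 from the start site, and *EPGN*, *EREG* and *AREG* each held 1 TATA box, starting at -29, -32 and -29. No AP-1 site occurred in these 5 windows. *HBEGF* held 5 GC boxes, of which the pair at -63 and -58 overlap. The RefSeq table holds windows of 300 bases (250 before and 50 after the start) for 8 of the 10 genes, 2 of them with a second window, *TGFA* and *EGFR*, and *ERBB3* and *NRG1* had none there. Of the 8, 1 held the CRE (*AREG*), 1 the AP-1 site (*EGFR*, in its second window), 5 the GC box and 4 the TATA box (for *EGFR* only in its second window). The same letters occur in 1.85%, 4.95%, 45.0% and 11.5% of the 35116 promoter windows. These shares count windows, whereas a gene with 2 windows counts where either held the letters. An ETS motif, CCGGAAG, was searched as well and occurred in 1 of the 8 (*ERBB2*) and in 10.3% of all windows. A match is a description of these letters and not of a factor bound there.

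In MCF10A, pLOC-*MALINC1* libraries held more transcript of 5 of the 7 ligands, and no receptor was called. *HBEGF*, *EREG*, *AREG*, *NRG1* and *TGFA* rose, and none of the 10 genes fell. Of all genes tested, 2.99% rose and 2.51% fell in this comparison. The median log2 fold change of the 10 genes was 0.82, beside 0.00 over all genes.

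*HBEGF* (heparin-binding EGF-like growth factor; GRCh37 chr5:139712428-139726188, minus strand) stood at 2.14 and 1.99 CPM in the MCF10A pLOC-empty libraries and at 17.9 and 18.6 CPM in the pLOC-*MALINC1* libraries. Both libraries with *MALINC1* lay far above both controls. The log2 fold change, which was the largest of the 10 genes in this comparison, had a standard error of 0.077 and an adjusted p of 3.05e-11 (limma). It rested on 45 and 62 reads in the pLOC-empty libraries and on 493 and 643 reads with *MALINC1*.

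*EREG*, the gene of epiregulin (chr4:75230862-75254466), was measured at 3.38 and 4.03 CPM in the controls and at 16.5 and 17.3 CPM under *MALINC1*. The groups did not overlap, and the log2 fold change was 2.17 ± 0.071 (SE), a 4.50-fold rise (limma adjusted p = 3.00e-10). *AREG* (chr4:75310853-75320722) went from 75.3 and 77.4 CPM to 303 and 312 CPM. That was a 4.02-fold rise (log2 fold change 2.01 ± 0.044 SE, limma adjusted p = 1.08e-11), and with 8266 or more reads in each pLOC-*MALINC1* library it was the most deeply covered ligand of that group. *TGFA*, which encodes transforming growth factor alpha (chr2:70674416-70781325, minus strand), moved from 54.4 and 56.2 CPM to 137 and 133 CPM. Its rise was 2.43-fold, with a log2 fold change of 1.28 ± 0.035 (SE) and a limma adjusted p of 6.31e-11.

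*NRG1* (neuregulin 1) was close to the limit of these libraries in MCF10A, with 2 reads and 1 read in the pLOC-empty libraries and 9 and 12 reads with pLOC-*MALINC1*. It was called, with a log2 fold change of 1.69 ± 0.22 (SE) and a limma adjusted p of 3.62e-05, but this value depends on the prior count. The 21 reads against 3 give a ratio of 5.79 with an exact 95% interval of 1.73 to 30.3, which covers counting error only. The call was lost with a larger pseudocount, where the log2 fold change was 0.55 (0.5 CPM) or 0.33 (1 CPM). *BTC* (betacellulin, chr4:75669969-75719733, minus strand) was low in every library, from 1.45 CPM to 3.09 CPM. In MCF10A its log2 fold change of 0.34 had a 95% interval of -0.051 to 0.73, and it was not called. *EPGN* (epigen, chr4:75174187-75182506) read 51.8 and 55.8 CPM in the controls and 44.1 and 49.7 CPM under *MALINC1*. Its log2 fold change was -0.20 with a 95% interval of -0.43 to 0.025 (limma adjusted p = 0.124), in contrast to its chromosomal neighbours *EREG* and *AREG*.

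**Figure D1:**
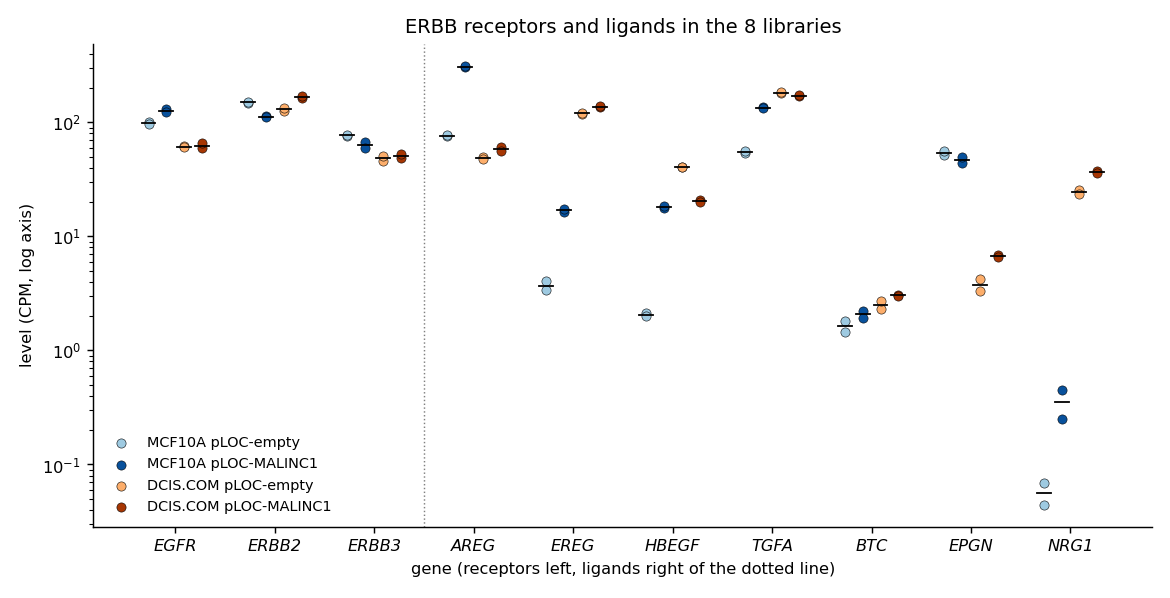
Level of each gene in the 8 libraries in CPM on a log axis, points standing for libraries coloured by group and a black line at the group mean (n = 2). *HBEGF* and *EREG* average 2.07 and 3.70 CPM in MCF10A pLOC-empty and lie higher in the other 3 groups, the receptors stay between 45.8 and 169 CPM, and *NRG1* is at the bottom of the scale in MCF10A.

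The receptors moved little. *EGFR* (chr7:55086710-55279321) was at 99.7 and 97.6 CPM in the MCF10A controls and at 131 and 123 CPM under *MALINC1*, a 1.28-fold difference (limma adjusted p = 5.65e-05) that fell short of the 2-fold limit. *ERBB2* (chr17:37844167-37886679) went the other way, from 147 and 152 CPM to 114 and 110 CPM. Its log2 fold change was -0.42 ± 0.039 (SE; limma adjusted p = 2.77e-06). *ERBB3* (chr12:56470583-56497289) stood at 76.5 and 78.1 CPM against 66.8 and 59.0 CPM, with a log2 fold change of -0.30 ± 0.067 (SE; limma adjusted p = 0.00246). None of these 3 receptors was called. Within a library the ratio of *ERBB2* to *EGFR* per kb of exon was 2.28 and 2.41 with pLOC-empty and 1.35 and 1.39 with pLOC-*MALINC1*. Exons of *MIEN1* and *PGAP3* on the opposite strand cover 5.53% and 1.40% of the exon length of *ERBB2*, and the strand setting of the counting is not given in the sources used here.

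In DCIS.COM none of the 10 genes was called by limma, with 0 also called by limma voom on the recovered reads and 7 at an unadjusted p below 0.05, beside 52.8% of all genes. Of all genes tested, 1.44% rose and 3.08% fell there. An adjusted p below 0.01 without passing 2-fold was given by 4 of the 10 genes, where 33.2% of all genes met that limit on p, whatever their fold change. *HBEGF* was the nearest to the limit and pointed down: the pLOC-empty libraries held 40.4 and 40.8 CPM and the pLOC-*MALINC1* libraries 20.7 and 19.9 CPM. Its log2 fold change was -0.997 ± 0.077 (SE), a level 1.996-fold lower, with a limma adjusted p of 6.21e-07. It was called under 4 of 20 alternatives at the same threshold: quantile normalization (-1.02), median-ratio size factors, and without replicate 1 of pLOC-empty or of pLOC-*MALINC1* in DCIS.COM (-1.03 in the latter). Over the 20 it ranged from -1.03 to -0.96. The other variance models, a replicate block and leaving out an MCF10A library could change only its p-value and not the fold change.

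*EPGN* in DCIS.COM was at 4.20 and 3.34 CPM in the controls and at 6.90 and 6.53 CPM under *MALINC1*. The log2 fold change of 0.83 ± 0.10 (SE; limma adjusted p = 3.78e-05) remained under 2-fold. *ERBB2* went from 126 and 134 CPM to 165 and 169 CPM, with a log2 fold change of 0.37 (limma adjusted p = 1.04e-05). For *AREG* the change from 49.3 and 47.8 CPM to 61.3 and 56.5 CPM gave a log2 fold change of 0.28 (limma adjusted p = 0.000237). The other 6 genes had adjusted p-values above 0.01. *EREG* had 118 and 121 CPM against 137 and 138 CPM, *TGFA* 180 and 183 CPM against 170 and 173 CPM, and *NRG1* 25.5 and 23.7 CPM against 37.7 and 36.2 CPM. These 3 ligands were thus well above their MCF10A pLOC-empty levels in every DCIS.COM library. *EGFR* and *ERBB3* overlapped between the vectors, and the 95% intervals of their log2 fold changes were -0.085 to 0.13 and -0.081 to 0.21. For *BTC* the interval was -0.11 to 0.67.

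**Figure D2:**
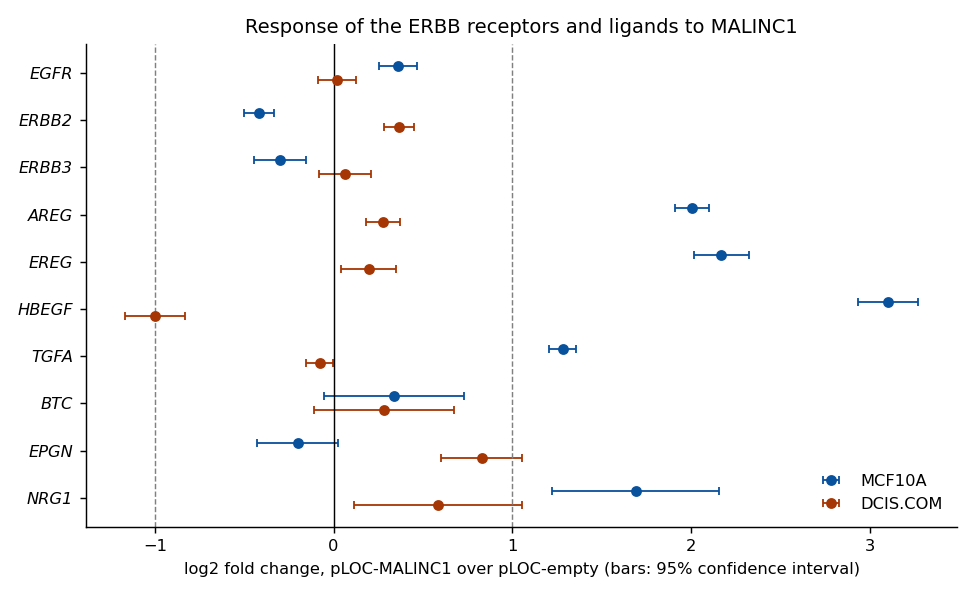
Log2 fold change of pLOC-*MALINC1* over pLOC-empty for each gene, blue for MCF10A and brown for DCIS.COM, with 95% confidence intervals from limma (2 libraries per group) and dashed lines at 2-fold. *HBEGF* lies at 3.10 in MCF10A and at -0.997 in DCIS.COM, and *EREG*, *AREG* and *TGFA* lie to the right of the 2-fold line in MCF10A and near 0 in DCIS.COM.

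The difference between the lines in the response was tested as an interaction, DCIS.COM minus MCF10A, which uses the same libraries as the comparisons above. It was called for 6 of the 10 genes, lower in 5 (*HBEGF*, *EREG*, *AREG*, *TGFA* and *NRG1*) and higher in 1 (*EPGN*), where 5.22% of all genes were called lower and 3.98% higher. The differences in log2 fold change were -4.10 ± 0.11 (SE) for *HBEGF*, -1.98 ± 0.10 for *EREG*, -1.73 ± 0.062 for *AREG* and -1.36 ± 0.049 for *TGFA*, with limma adjusted p-values of 7.04e-11, 1.18e-08, 5.61e-10 and 5.80e-10. *EPGN* differed by 1.03 ± 0.15 (limma adjusted p = 1.01e-04) and was called in 13 of 19 alternatives at the same threshold; leaving out 1 library took it below 2-fold 4 times, to 0.98 without MCF10A pLOC-empty replicate 2, 0.94 without MCF10A pLOC-*MALINC1* replicate 1, 0.87 without DCIS.COM pLOC-empty replicate 2 and 0.99 without DCIS.COM pLOC-*MALINC1* replicate 1. *NRG1* differed by -1.10 ± 0.30 (limma adjusted p = 0.00973), was called in 5 of 19, kept its call when a library was left out only without replicate 1 of either MCF10A group (-0.75 to -1.46 over the 8 libraries), and turned positive with a pseudocount of 0.5 or 1 CPM (0.029 and 0.24). Among the receptors, *ERBB2* gave the largest difference, 0.78 ± 0.056 (limma adjusted p = 2.56e-07), which did not reach 2-fold.

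Between the lines with the empty vector, 4 ligands were higher in DCIS.COM (*NRG1*, *EREG*, *HBEGF* and *TGFA*), *EPGN* was lower, and no receptor was called. Genes called higher made up 15.6% of those tested and genes called lower 13.0%. *EREG* differed 31.9-fold (log2 fold change 5.00 ± 0.071 SE, limma adjusted p = 1.38e-14), *HBEGF* 19.0-fold (adjusted p = 9.20e-14) and *TGFA* 3.28-fold (adjusted p = 2.40e-13). *NRG1* had 547 and 496 reads in DCIS.COM against 2 reads and 1 read in MCF10A, a ratio of 423 with an exact 95% interval of 144 to 2055. The non-coding gene *RP11-1002K11.1*, which has no row, covers 8.59% of the *NRG1* exon length on the same strand. Its part in these reads was not tested. *EPGN* was 14.1-fold lower in DCIS.COM (limma adjusted p = 3.31e-12). *EGFR*, *ERBB3* and *AREG* were lower by log2 fold changes of -0.68, -0.68 and -0.65, all short of 2-fold.

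With *MALINC1* in both lines, 2 of the 10 genes were higher in DCIS.COM (*NRG1* and *EREG*) and 3 lower (*EPGN*, *AREG* and *EGFR*), beside 14.4% and 12.2% of all genes tested. *HBEGF* did not pass the test between the lines, at 17.9 and 18.6 CPM in MCF10A and 20.7 and 19.9 CPM in DCIS.COM, with a 95% interval of the log2 fold change from -0.017 to 0.32 (limma adjusted p = 0.0880). *EREG* still differed 8.11-fold (adjusted p = 1.08e-12). *AREG* was 5.22-fold lower in DCIS.COM (log2 fold change -2.38 ± 0.044 SE, limma adjusted p = 1.30e-13). *EGFR* was 2.03-fold lower (limma adjusted p = 7.29e-10), and that call was lost in 4 of 20 alternatives: -0.90 with quantile normalization, -0.84 with total reads without the RN7SL genes, -0.98 without MCF10A pLOC-*MALINC1* replicate 1 and -0.96 without DCIS.COM pLOC-*MALINC1* replicate 1. *TGFA* differed by a log2 fold change of 0.35 and *ERBB2* by 0.58, neither past 2-fold.

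Compared per kb of exon, which puts genes of different length on one scale, *AREG* was the most abundant of the 10 in MCF10A, at 46.5 ± 0.90 CPM per kb (SD, n = 2) with pLOC-empty and 187 ± 4.1 with pLOC-*MALINC1*. *EPGN* (16.3 ± 0.86), *ERBB2* (14.5 ± 0.33) and *TGFA* (11.2 ± 0.27) followed in MCF10A with pLOC-empty, and *HBEGF*, *EREG* and *BTC* lay between 0.62 and 0.69. The latter 3 did not differ beyond their spread. In DCIS.COM with pLOC-empty the order began with *TGFA* (36.9 ± 0.43), *AREG* (29.6 ± 0.65), *EREG* (21.0 ± 0.37), *HBEGF* (13.6 ± 0.090) and *ERBB2* (12.6 ± 0.57). *TGFA* and *AREG* were within their spread of each other in DCIS.COM with pLOC-*MALINC1*, at 34.9 ± 0.44 and 35.9 ± 2.0. The group means of *EGFR* ran from 3.85 to 7.95 and those of *ERBB3* from 4.13 to 6.60. With lengths of the longest transcript *ERBB2* moved above *EPGN* in MCF10A with either vector. In DCIS.COM with pLOC-empty *ERBB2* then moved above *HBEGF* and, by its mean, above *EREG*, whose libraries it overlapped. In DCIS.COM with pLOC-*MALINC1* it moved above *EREG* as well. The place of *ERBB2* in these orders, the one given for DCIS.COM included, therefore depends on the gene model.

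Summed over the 7 ligands, the level was 76.0 ± 2.2 CPM per kb (SD, n = 2) in MCF10A with pLOC-empty and 239 ± 4.9 with pLOC-*MALINC1*, a ratio of 3.14. In DCIS.COM the sums were 104 ± 0.12 and 107 ± 1.7, a ratio of 1.02. *AREG* made up 61.2% of the sum in MCF10A with pLOC-empty and 78.4% with pLOC-*MALINC1*, while the share of *EPGN* was 21.4% and 5.95%. In DCIS.COM no ligand averaged more than 35.4%. There *TGFA* held 35.4% and 32.8%, *AREG* 28.4% and 33.7%, *EREG* 20.1% and 22.6%, and *HBEGF* 13.0% and 6.37% with pLOC-empty and pLOC-*MALINC1*.

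**Figure D3:**
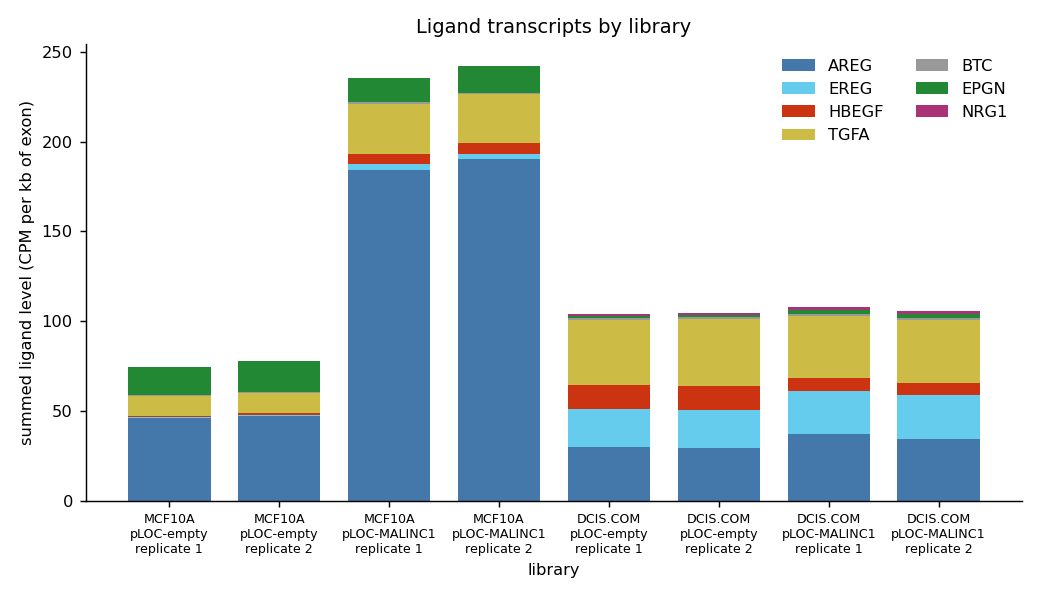
Summed level of the 7 ligands in each library in CPM per kb of exon, with stacked segments for the ligands. The MCF10A pLOC-*MALINC1* bars stand at 3.14 times the mean of the MCF10A pLOC-empty bars, mostly through *AREG*, and the 4 DCIS.COM bars are of nearly equal height.

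The level of *AREG* carries a limit of the genome build. GRCh37 annotates a second copy of the gene, *AREGB* (chr4:75480629-75490486), and 93.4% of the 76-base stretches of the longest *AREG* transcript also occur in it, so reads could be split between the copies. The table has no row named *AREGB*. A row without a symbol (Entrez identifier 727738) had the highest Pearson correlation with *AREG* of all genes compared, r = 0.9997 over 8 libraries, and averaged 63.1, 253, 39.8 and 46.6 CPM in the 4 groups (MCF10A pLOC-empty and pLOC-*MALINC1*, then DCIS.COM pLOC-empty and pLOC-*MALINC1*). The table does not pair this identifier with a gene name. Were its reads counted to *AREG*, a setting added after the data were seen, *AREG* would stand at 85.0, 341, 53.8 and 64.2 CPM per kb in these groups and make up 74.2%, 86.9%, 41.9% and 47.6% of the ligand sum. It would then lie above *TGFA* in DCIS.COM too, so the order of the 2 genes there depends on that row.

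Along chromosome 4 *EPGN*, *EREG* and *AREG* follow one another with gaps of 48355 and 56386 bases, and *BTC* lies 349246 bases further. The chemokine genes of the CXCL family precede them. In MCF10A *CXCL8* rose by a log2 fold change of 1.81 (limma adjusted p = 5.22e-09), *CXCL1* by 1.63 (4.86e-10) and *CXCL5* by 1.37 (1.00e-04), while *MTHFD2L*, 5370 bases before *EPGN*, had 0.20 (0.0339) and was not called. *PPBP* (-0.89), *CXCL3* (0.15) and *CXCL2* (0.50) were not called there either. In DCIS.COM *CXCL3* fell (log2 fold change -1.49, limma adjusted p = 1.44e-04) and *PARM1* rose (1.5, limma adjusted p = 3.65e-04), and *CXCL8* and *CXCL1* had log2 fold changes of 0.10 and 0.19 without a call. *PARM1*, the next measured gene after *BTC*, was called in MCF10A too, on 1 read in the pLOC-empty libraries together and 11 with pLOC-*MALINC1*, a ratio of 9.10 with an exact 95% interval of 1.32 to 392.

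**Figure D4:**
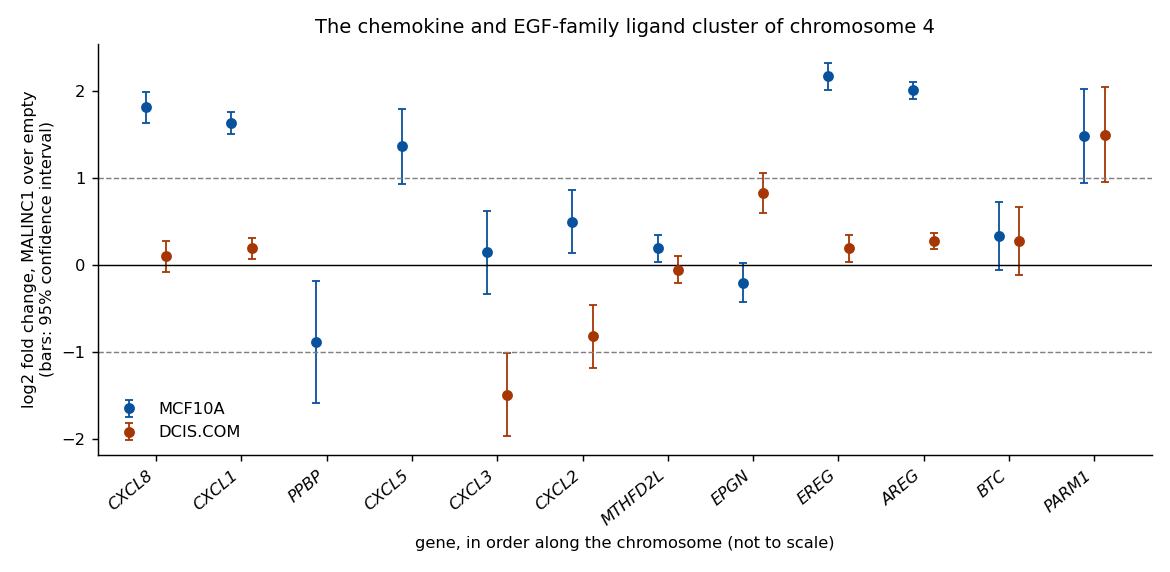
Log2 fold change of pLOC-*MALINC1* over pLOC-empty for the measured genes of the chromosome 4 cluster in chromosomal order, with 95% confidence intervals (2 libraries per group) and dashed lines at 2-fold. In MCF10A *CXCL8*, *CXCL1*, *CXCL5*, *EREG* and *AREG* lie above the upper line and *MTHFD2L*, *EPGN* and *BTC* near 0; groups both at 3 or fewer reads per library are not drawn.

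*HBEGF* and *MALINC1* are both on chromosome 5, 223569 bases apart. The 4 measured genes from *MALINC1* to *HBEGF*, *PURA*, *IGIP*, *CYSTM1* and *PFDN1*, were not called in either line, with log2 fold changes from -0.44 to 0.11 in MCF10A and from -0.15 to 0.33 in DCIS.COM. Of these, *PURA* (plus strand, from 139487362) overlaps the end of the *MALINC1* locus (minus strand, to 139488859). *NRG2*, a neuregulin gene 28013 bases on the other side of *MALINC1*, had 0 or 1 read per library in MCF10A, and in DCIS.COM it averaged 4.20 ± 0.40 CPM in the controls and 2.67 ± 0.32 CPM under *MALINC1* (SD, n = 2; limma adjusted p = 0.0795).

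Of the 5 further receptors and ligands looked for, 3 were measured, and *ERBB4* and *NRG3* are not in the table. *NRG4*, a ligand of ERBB4, fell in DCIS.COM from 14.9 ± 0.72 to 7.38 ± 0.15 CPM (SD, n = 2; log2 fold change -1.0, limma adjusted p = 5.83e-06), and in MCF10A its log2 fold change of -0.94 (adjusted p = 8.11e-06) was short of the limit. *EGF* itself averaged 0.70 CPM in both MCF10A groups and 1.94 and 2.11 CPM in DCIS.COM, and was not called for *MALINC1* in either line (limma adjusted p = 0.946 and 0.691).

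The 11 genes of ligand shedding were ADAM proteases, the rhomboid-family genes *RHBDF1*, *RHBDF2* and *RHBDL2*, and *FRMD8*. None was called in MCF10A by limma (9 at an unadjusted p below 0.05, beside 58.5% of all genes). In DCIS.COM 2 of them fell, beside 3.08% of all genes. *ADAM8* went from 30.2 ± 0.50 to 1.5 ± 0.099 CPM (SD, n = 2; log2 fold change -4.27, limma adjusted p = 1.89e-09) and *ADAM19* from 35.3 ± 0.91 to 10.6 ± 0.60 CPM (log2 fold change -1.73, limma adjusted p = 8.45e-09). *ADAM17*, the main sheddase of *AREG*, *EREG*, *HBEGF* and *TGFA*, differed by a log2 value of -0.073 with *MALINC1* in MCF10A and of -0.25 in the other line, with no call. The median of the list was -0.073 in MCF10A and -0.076 in DCIS.COM.

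Of 14 receptor adaptors and proximal signaling genes, 1 rose in MCF10A and 1 fell in DCIS.COM, beside 2.99% and 3.08% of all genes. *SRC*, a non-receptor tyrosine kinase, rose in MCF10A from 19.1 ± 1.2 to 49.0 ± 0.53 CPM (SD, n = 2, log2 fold change 1.36, limma adjusted p = 2.24e-09). *PIK3R3*, a regulatory subunit of PI3 kinase, fell in DCIS.COM from 182 ± 8.7 to 78.4 ± 1.3 CPM (log2 fold change -1.22, limma adjusted p = 7.19e-10). Of 15 receptor inhibitors and turnover genes none was called in either line by limma. At an unadjusted p below 0.05 there were 10 in MCF10A and 7 in DCIS.COM, beside 58.5% and 52.8% of all genes. The largest changes were those of *LRIG3* in MCF10A (log2 fold change 0.85, limma adjusted p = 3.18e-08) and *PTPRJ* in DCIS.COM (-0.73, limma adjusted p = 6.22e-06). Between the lines with the empty vector 4 of these 15 were higher in DCIS.COM and 2 lower, beside 15.6% and 13.0% of all genes. The receptor inhibitor *LRIG1*, named after its values were seen, had the largest difference (log2 fold change 4.56, limma adjusted p = 5.43e-11).

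Of 10 genes of ERK pathway output, which this cascade induces and many of which feed back on it, 4 rose in MCF10A and none fell, beside 2.99% and 2.51% of all genes. The median log2 fold change of the 10 was 0.64, beside 0.00 over all genes. This list, like the others, was chosen with earlier results of these data known, so these counts are a description. *DUSP6*, a phosphatase of ERK, went from 13.7 ± 1.2 to 65.0 ± 0.092 CPM (SD, n = 2; log2 fold change 2.24, limma adjusted p = 4.86e-11) and *SPRY4*, a Sprouty inhibitor, from 2.15 ± 0.60 to 7.77 ± 0.12 CPM (log2 fold change 1.85, limma adjusted p = 6.48e-07). *PHLDA1* (1.42) and *SPRY2* (1.12) were the other two. In DCIS.COM none of the 10 was called by limma (8 at an unadjusted p below 0.05, beside 52.8% of all genes). The median there was -0.16, with *DUSP6* at 132 ± 7.2 CPM in the controls and 111 ± 4.7 CPM under *MALINC1*. The difference between the lines was called lower for 4 of the 10 (*DUSP6*, *SPRY4*, *PHLDA1* and *ETV4*), beside 5.22% of all genes. With the empty vector 7 of the 10 were higher in DCIS.COM than in MCF10A, beside 15.6% of all genes.

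**Figure D5:**
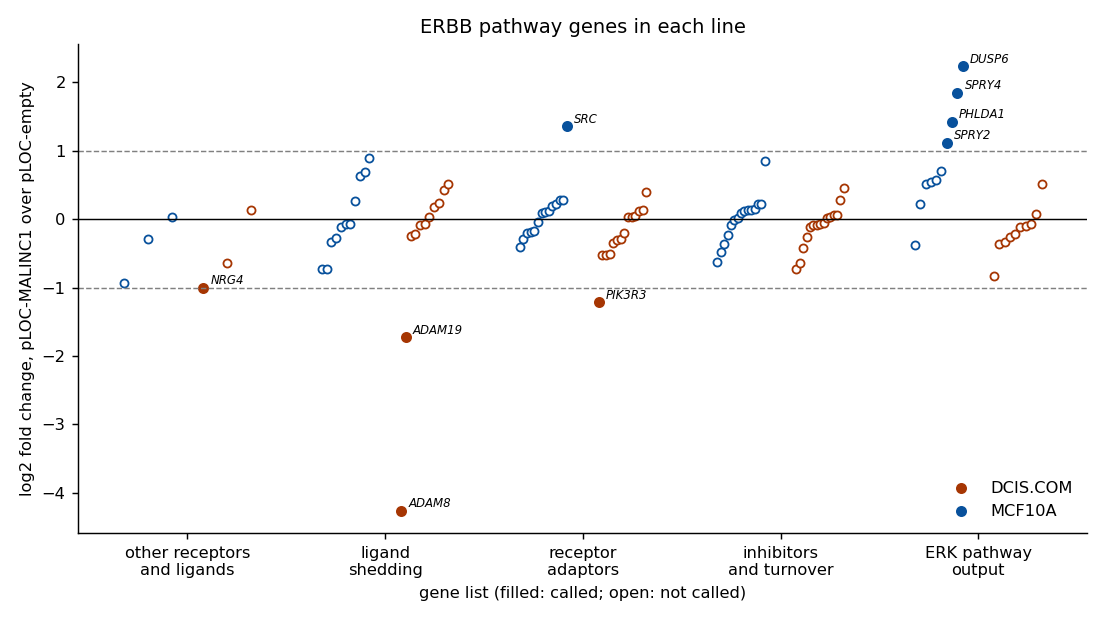
Log2 fold change of pLOC-*MALINC1* over pLOC-empty for the genes of 5 pathway lists, each gene 1 point per line, filled and named where called. The 4 filled points of ERK pathway output are all from MCF10A, at 1.12 to 2.24, and *ADAM8* in DCIS.COM is the lowest point, at -4.27.

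The genes whose profile over the 8 libraries was most like that of a called ligand were taken by Pearson correlation of log2 CPM, as a description of 8 libraries that fall into 4 groups. For *TGFA* they were *AIFM2*, *DUSP6* and *ANKRD22* (r = 0.998, 0.997 and 0.995), so that a gene of the ERK list stood second. For *EREG* they were *CCDC88C*, *MRPL3* and *PLAT* (0.9994, 0.9992 and 0.998), of which *PLAT*, tissue plasminogen activator, averaged 7.09 CPM in the MCF10A controls and 32.4 CPM under *MALINC1*, and 268 and 241 CPM in DCIS.COM. For *HBEGF* they were *HSPA4L*, *GFM1* and *TOMM70* (0.997, 0.997 and 0.995), for *AREG* after the unnamed row *YWHAG* and *TDG* (0.998 each), and for *NRG1* *JTB*, *HNMT* and *MACROH2A1* (0.9994, 0.9989 and 0.9989).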

How the data were processed

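RNA was isolated from subconfluent plates, RNA of RIN over 8 was made into libraries with the ScriptSeq kit and 76-nt paired ends were sequenced. The authors aligned the reads with Rsubread to hg19, counted them with featureCounts on UCSC genes and deposited log2 CPM values from edgeR, which are counts scaled to an effective library size. Tool versions, the strand setting and the filter on low counts are not given in the sources used here. In every library a gene without reads stands at 0.0713 CPM, the prior count. Removing it gave whole reads for 100% of values (tolerance 0.01 read), and these reads and their CPM are the levels in the text. The library factor relating effective size to total reads ranged from 0.945 to 1.11, and *RN7SL1* and *RN7SL2* took 8.22% to 15.7% of reads. The replicates' log2 CPM correlated at 0.996 to 0.997. No replicate pair agreed within sampling noise: the chi-square of their reads per degree of freedom was 3.27 to 6.27 in 3 groups and 20.4 in DCIS.COM pLOC-*MALINC1*, whose libraries gave 11.5% and 8.22% of reads to the RN7SL genes; leaving out either is among the alternatives.

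The deposited log2 CPM of all 13842 genes (0.5 CPM in 2 libraries kept all) were fitted with limma 3.58.1 (R 4.3.3), with 4 group means over the 8 libraries and a mean-variance trend, without a replicate term; p-values were adjusted by Benjamini-Hochberg over all genes. Of these genes 346 have no symbol. All columns were matched to samples by name. Lengths and positions are from GENCODE on GRCh37, and promoters are from RefSeq on another build, GRCh38.p14, so that no position was carried between them. Genes named are the 10 members, up to 4 called genes per pathway list (or the 2 of largest change), the 3 genes most like each called ligand among those averaging 5 CPM or more, and the neighbours on chromosomes 4 and 5; the TATA box was added to the motifs after the sequences were read. The members and lists were chosen with earlier results of these data known. A group whose libraries all had 3 or fewer reads was treated as at the floor, and its ratio was then taken from reads with an exact interval. Alternatives were pseudocounts, filters, quantile and median-ratio scaling, totals without the RN7SL genes, voom on the recovered reads, other variance models, a looser threshold, a replicate block and leaving out each library; counting the unnamed row to *AREG* was added after the data were seen.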

Additional observations from a re-analysis of the deposited data

Results flagged for a closer look

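The response to *MALINC1* differed between the lines in a test of the difference itself (limma interaction, adjusted p below 0.01 and over 2-fold) for 6 of the 10 genes. On the log2 scale, DCIS.COM minus MCF10A, it was -4.1 for *HBEGF*, -1.98 for *EREG*, -1.73 for *AREG*, -1.36 for *TGFA*, -1.1 for *NRG1* and 1.03 for *EPGN*. The calls of *NRG1* and *EPGN* held in only 5 and 13 of 19 alternatives at the same threshold, and *NRG1* turned positive with a larger pseudocount. *HBEGF* had opposite signs, 3.10 in MCF10A and -0.997 in DCIS.COM, with both 95% intervals away from 0, and so did *ERBB2*, at -0.42 and 0.37, with neither value past 2-fold. For *EREG*, *AREG* and *TGFA* the rise in MCF10A stood against log2 fold changes of 0.20, 0.28 and -0.078 in DCIS.COM. The lines also differed in medium, EGF being listed for MCF10A only, and the part of the medium in these differences was not tested.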

How the results depend on the processing

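With an adjusted p below 0.05 and no limit on fold change, 8 of the 10 genes were called in MCF10A, 6 in DCIS.COM, 10 between the lines with the empty vector and 9 with *MALINC1*, beside 53.0%, 46.1%, 81.2% and 80.4% of all genes. In DCIS.COM 1 gene, *HBEGF*, was called under quantile normalization and 1 under median-ratio size factors, and leaving out each library gave 0 to 1 calls, the 1 arising without DCIS.COM pLOC-empty replicate 1 or pLOC-*MALINC1* replicate 1. *AREG*, *EREG*, *HBEGF* and *TGFA* were called in MCF10A and in the difference between the lines under every alternative run. Some alternatives, such as other variance models or leaving out a library outside the comparison, cannot move a fold change, so counts of alternatives include them. In DCIS.COM the sign turned for *ERBB3* (-0.012 without DCIS.COM pLOC-empty replicate 1, in a range up to 0.14 over the 8 libraries left out) and *EGFR* (-0.047 without DCIS.COM pLOC-*MALINC1* replicate 2, up to 0.089). In the difference between the lines it turned for *NRG1* (0.029 and 0.24 with pseudocounts of 0.5 and 1 CPM) and *BTC* (0.016 with total reads without the RN7SL genes, and -0.21 to 0.099 when each library was left out). The causes were not tested. *NRG1* in MCF10A also lost its call in a fit of its 4 libraries alone (adjusted p = 0.014). Taking total reads without the RN7SL genes moved the median log2 fold change of all genes by 0.104, reaching 0.135 (empty vector), and by 0.18, reaching 0.185 (*MALINC1*), in the comparisons of the lines. With the unnamed row counted to *AREG*, its share of the ligand sum moved in all 4 groups, in DCIS.COM from 28.4% to 41.9% and from 33.7% to 47.6%. The labels share replicate numbers, but deviations of same-numbered libraries correlated at -0.152 to 0.11 over 10769 genes, so they were taken to share only a number. With a replicate block 5, 0, 5, 5 and 5 of the 10 genes were called in the 5 comparisons, *NRG1* losing its call in the difference between the lines (adjusted p = 0.0119).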
